A study of Mus musculus with 8 samples.

Results

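The genes described here supply P450 enzymes with electrons and with heme. They are Por, Cyb5a, Alas1, Alad, Urod, Cpox, Ppox, Fech and Hmox1, 9 of 20703 named genes on the arrays, chosen by name with every feature (spot) that carries their symbol, 11 of 31465 such features. Cyb5a is listed under its older symbol Cyb5. Livers came from male mice of the outbred CD-1 stock that ate either 2500 ppm NaPB (sodium phenobarbital; 4 arrays) or the control feed with 0 ppm (4 arrays) for 7 days, and their RNA was hybridised to 1-colour Agilent arrays. Phenobarbital, a barbiturate, acts on hepatocytes mainly by activating CAR, a nuclear receptor. The age of the mice is not given in the sources used here, and the labels do not state that each array had an animal of its own, so p-values reflect the spread among these samples alone, which may be technical. Values are linear spot intensities, scaled before deposit by a rule not given in the sources used here; the 75th percentile of each array lies between 0.952 and 0.974. In whole liver, fewer cells of a type and less RNA per cell cannot be told apart.

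Microsomal P450 enzymes receive electrons from NADPH through P450 reductase (Por), a flavoprotein of the endoplasmic reticulum. Cytochrome b5 (Cyb5a) can pass on the second electron and also serves fatty acid desaturases. Each P450 holds a heme group. Heme is made from glycine and succinyl-CoA, beginning in the mitochondrion with 5-aminolevulinate synthase, the rate-limiting step, whose liver form is Alas1. Alad and Urod act in the cytosol, and Cpox, Ppox and Fech complete the pathway at and in the mitochondrion, where Fech inserts the iron. Heme oxygenase 1 (Hmox1) opens the ring again. Phenobarbital is a classical inducer of Alas1 and Por in rodent liver.

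Por, Alas1 and Cyb5a were higher on NaPB replicates 1 to 3 than on every control array. Ratios of geometric means over those 3 arrays and the 4 controls were 9.61-fold, 5.73-fold and 2.91-fold. Over all 8 arrays they were 6.10-fold, 3.02-fold and 2.29-fold. Alas1 is measured here by the brighter of its 2 features. The dimmer one gave 1.73-fold without NaPB replicate 4 and 1.46-fold over all 8 arrays, both with overlap. Of all genes, 10.2% were higher on NaPB replicates 1 to 3 than on every control and 5.79% lower, among them Hmox1. NaPB replicate 4 stood apart. Its Por level also lay above every control, but only just. Its Cyb5a level lay among the controls and its Alas1 level below them. The later enzymes of heme synthesis, Alad to Fech, and Hmox1 were not shifted upward by more than 0.44 log2 units from the control mean on any NaPB array. Some lay well below that mean, with Alad at −1.96 and Fech at −1.35 on NaPB replicate 4 and Cpox at −1.78 on NaPB replicate 3. With all 8 arrays limma called none of the 9 genes higher or lower at an adjusted p below 0.05, where 0.391% of all genes were called higher and 0.618% lower; 3 of the 9 had an unadjusted p below 0.05 (Por, Cyb5a and Cpox), as did 10.1% of all genes, the share against which such counts of the related lists below also stand. With NaPB replicate 4 left out, limma called 3 of the 9 higher (Por, Alas1 and Cyb5a) and none lower, with 1.02% of all genes called higher and 0.744% lower; Por and Cyb5a also had an unadjusted p below 0.05 with all arrays. Leaving out any other single array, control replicate 1 included, gave no call among the 9. The departure of NaPB replicate 4 in these genes was known when it was left out. The ratios and calls made without it are therefore not independent evidence.

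**Figure D1:**
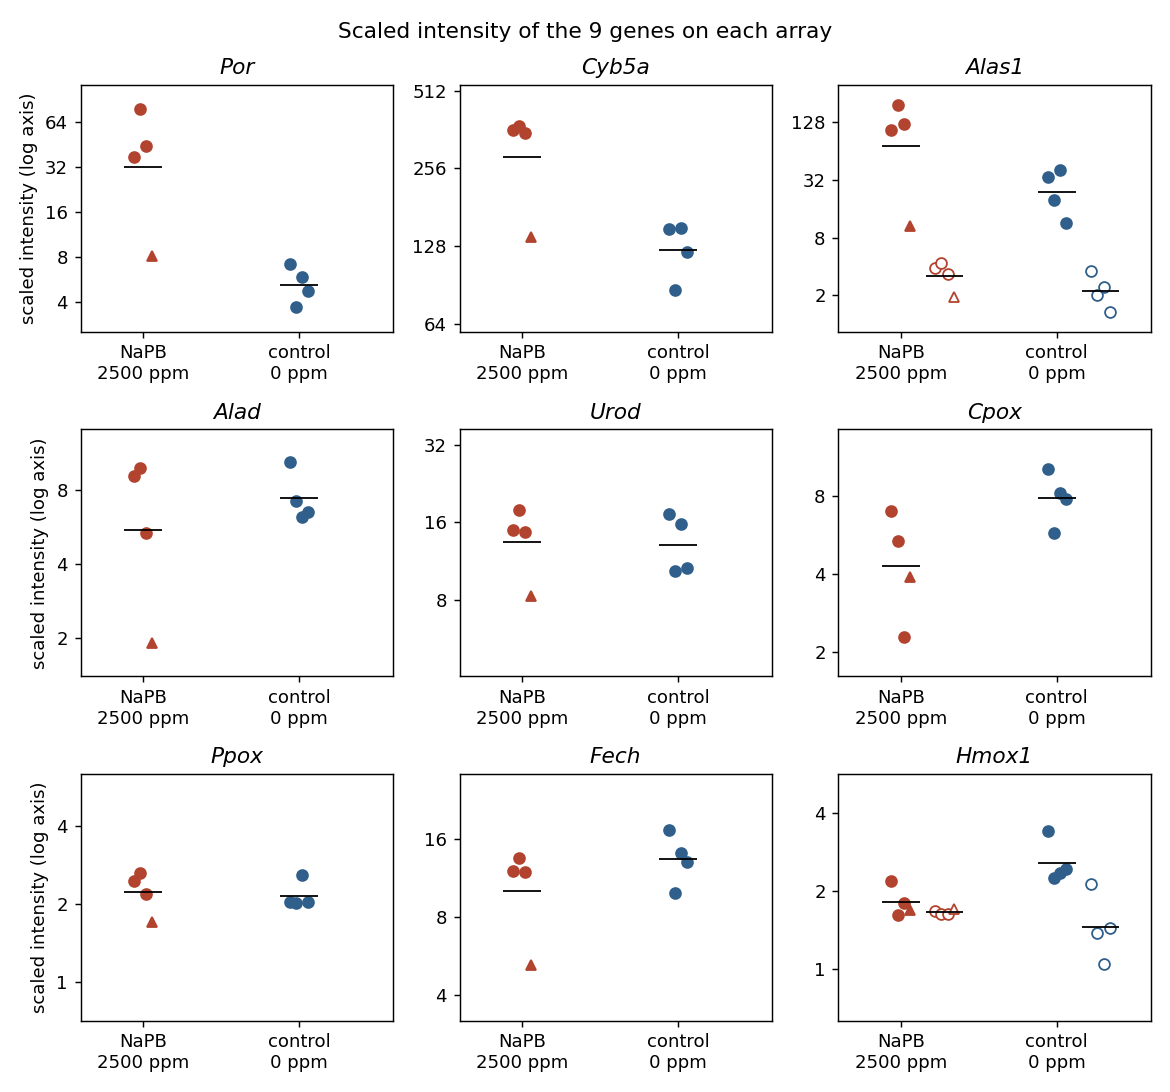
Scaled intensity (vertical log axis, arbitrary units after the authors' scaling) of each gene on the 4 NaPB arrays (red, left) and the 4 control arrays (blue, right). Triangles mark NaPB replicate 4, open symbols the dimmer second feature of Alas1 and Hmox1, and black lines the geometric means. On NaPB replicates 1 to 3, Por, Cyb5a and Alas1 (brighter feature) lay above all controls. NaPB replicate 4 stood at 8.14, 139 and 10.5, above all controls for Por only.

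Facts of the arrays bear on every value below. NaPB replicate 4 and control replicate 1 were the extremes of principal component 1 over all genes (33.5% of the variance), with median correlations to the other arrays, across genes, of 0.931 and 0.914, so that control replicate 1 lay farther out; NaPB replicate 2 had 0.932. Arrays of the same diet also differed in the level of bright genes. In the brightest decile of genes, which holds 7 of the 9 members (all but Ppox and Hmox1), the median gene of NaPB replicate 4 had a shift of −0.87 log2 units from the mean of the other NaPB arrays. Among the controls that shift was −0.54 on replicate 2 and 0.52 on replicate 1. For the median gene of that decile, the mean of NaPB replicates 1 to 3 lay 0.26 log2 units above the control mean. The shares of genes given above were counted over all genes, not over this decile. Transcripts of 2 acute phase proteins, which the liver secretes in inflammation, were high on NaPB replicate 4, and were picked with their values known: the haptoglobin gene Hp stood at 2524 there, with 932 to 1222 on NaPB replicates 1 to 3 and 567 to 1226 among the controls, and the fibrinogen gene Fgb at 680, with 161 to 191 on NaPB replicates 1 to 3 and 187 to 342 among the controls. Hamp, the hepcidin gene, which also responds to inflammation, was not highest there, at 28.9 on NaPB replicate 4, 8.64 to 33.3 on NaPB replicates 1 to 3 and 15.5 to 46.9 among the controls. The part of these array differences in the results was not tested. All 10 hepatocyte markers were measured on every array. Their defining genes were bright, with Alb at 109 to 281 on NaPB and 320 to 611 on control arrays and Ttr at 103 to 277 and 130 to 236. Of the 10, 7 had a log2 fold change below 0 (median −0.38) and limma called none. Alb, the albumin gene (log2 −1.24 ± 0.36, limma adjusted p = 0.190), was lower on NaPB without overlap. So was Apoa1, the apolipoprotein A-I gene (geometric means 201 on NaPB and 402 on control, limma adjusted p = 0.167). Of all genes, 4.31% were lower without overlap. After quantile normalization limma called Alb and Apoa1 lower (adjusted p = 0.0298 and 0.0333), among 225 of 20703 genes called lower. The part of these shifts in the values below was not tested.

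The upstream sequences of Por and Alas1, the pair with the largest differences on NaPB replicates 1 to 3, are shown because both genes were high on the same arrays. Each is the 250 bases before a transcription start in RefSeq (GRCm38.p6), 5′ to 3′ on the gene's own strand. Capitals mark GC boxes, the letters GGGCGG on either strand.
Por, chr5:135688895-135689144, plus strand: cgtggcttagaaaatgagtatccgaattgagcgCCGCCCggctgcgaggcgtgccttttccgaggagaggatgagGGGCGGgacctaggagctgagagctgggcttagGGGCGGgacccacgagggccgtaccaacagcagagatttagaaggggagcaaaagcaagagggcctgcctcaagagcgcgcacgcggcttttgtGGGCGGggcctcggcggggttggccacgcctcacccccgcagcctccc
Alas1, chr9:106247955-106248204, minus strand: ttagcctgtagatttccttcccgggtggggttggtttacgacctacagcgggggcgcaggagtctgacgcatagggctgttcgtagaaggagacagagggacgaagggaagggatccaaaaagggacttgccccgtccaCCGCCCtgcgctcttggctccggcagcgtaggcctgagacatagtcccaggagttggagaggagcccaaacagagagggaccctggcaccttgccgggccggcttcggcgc
Both windows are rich in G and C (65.6% for Por and 62.4% for Alas1, against a median of 52.4% over 32851 mouse windows). The Por window holds 4 GC boxes and the Alas1 window 1; 32.7% of all windows hold at least 1. On neither strand did these windows contain the half-sites of CAR and its relatives, AGGTCA (in 14.0% of all windows) or AGTTCA (11.8%), their direct repeat AGNTCANNNNAGNTCA (0.104%), or TATAAA (12.4%). RefSeq gives Alas1 a second start 224 bases downstream, and the window before that start contains the NRF1 motif GCGCATGCGC, which reads the same on both strands and is found in 0.782% of windows; NRF1 is a regulator of genes for mitochondrial respiration. The site in capitals with its flanks is printed below.
Alas1, chr9:106247906-106247935, minus strand: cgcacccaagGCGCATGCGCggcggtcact
A match is a description of these letters, and no match says nothing about elements elsewhere, such as distal enhancers.

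Por, the P450 reductase gene, had intensities of 37.3, 77.4, 43.9 and 8.14 on NaPB replicates 1 to 4, against 7.23, 3.71, 5.87 and 4.73 on control replicates 1 to 4. The diets did not overlap, although NaPB replicate 4 lay close to the highest control; 2.72% of all genes were higher without overlap. The geometric mean was 31.9 on NaPB (log2 SD 1.39, n = 4) and 5.22 on control (log2 SD 0.41, n = 4). This was a log2 fold change of 2.61 ± 0.59 (SE), a 6.10-fold difference with a 95% interval of 2.48-fold to 15.0-fold, and limma's adjusted p was 0.0764. Without NaPB replicate 4 it was 3.26 ± 0.35 (limma adjusted p = 0.00336). Por was also called by limma after quantile normalization (log2 2.52, adjusted p = 0.0345).

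Cyb5a, the cytochrome b5 gene, had 359, 373, 351 and 139 on NaPB replicates 1 to 4, against 149, 86.6, 151 and 122 on control replicates 1 to 4. NaPB replicates 1 to 3 lay within 1 narrow band above all controls, and NaPB replicate 4 fell between control arrays. Its geometric means were 285 on NaPB (log2 SD 0.69, n = 4) and 124 on control (log2 SD 0.37, n = 4). This gave a difference of 1.20 ± 0.37 on the log2 scale (95% interval 0.38 to 2.01, limma adjusted p = 0.228). Without NaPB replicate 4 the log2 fold change was 1.54 ± 0.27 (limma adjusted p = 0.0288).

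Alas1, the gene of the first enzyme of heme synthesis in liver, varied most. Its brighter feature gave 106, 194, 122 and 10.5 on NaPB replicates 1 to 4, against 34.5, 19.7, 40.7 and 11.4 on control replicates 1 to 4. NaPB replicates 1 to 3 exceeded every control and NaPB replicate 4 lay below every control. The geometric means were 71.5 on NaPB (log2 SD 1.89, n = 4) and 23.7 on control (log2 SD 0.83, n = 4). Their difference was 1.59 ± 0.80 log2 units with all arrays (95% interval −0.18 to 3.37, limma adjusted p = 0.576), and 2.52 ± 0.46 without NaPB replicate 4 (limma adjusted p = 0.0316). The controls also spread more for Alas1 than for any other of the 9 genes, by their brighter features. The second Alas1 feature, dimmer on every array, gave 3.83, 4.38, 3.31 and 1.94 on NaPB replicates 1 to 4, against 3.55, 2.01, 2.45 and 1.35 on control replicates 1 to 4. On this feature the diets overlapped, and its log2 fold change was 0.55 ± 0.37 (limma adjusted p over all features = 0.722), or 0.79 ± 0.35 without NaPB replicate 4 (0.355). Both features were lowest within their diet on NaPB replicate 4 and on control replicate 4.

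**Figure D2:**
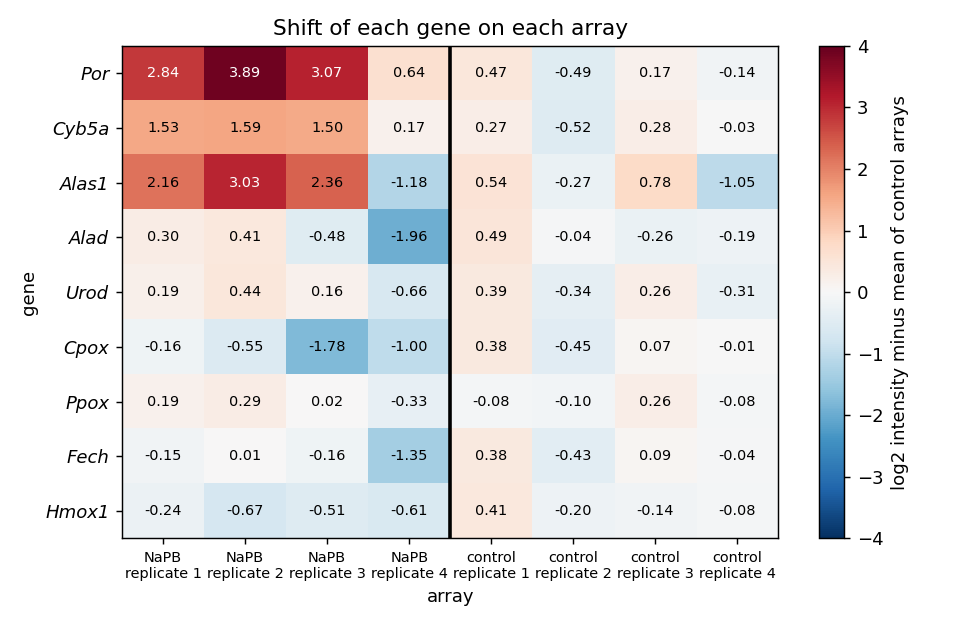
Shift of each gene (rows, brightest feature) on each array (columns, NaPB left of the line, control right of it), as log2 intensity minus the mean of the control arrays. Por, Cyb5a and Alas1 are shifted by 1.50 to 3.89 on NaPB replicates 1 to 3, while on NaPB replicate 4 they stand at 0.64, 0.17 and −1.18.

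On NaPB replicates 1 to 3 the 5 later enzymes of heme synthesis did not follow the brighter feature of Alas1. Their mean shift from the control mean was 0.073, 0.12, −0.45 and −1.06 log2 units on NaPB replicates 1 to 4, where Alas1 was shifted by 2.16, 3.03, 2.36 and −1.18. On NaPB replicates 1 to 3 Alas1 thus lay 2.09 to 2.91 units above their mean shift, and on NaPB replicate 4 it lay at −0.12 from it. On the control arrays that distance ran from −0.93 to 0.70. By the dimmer Alas1 feature the distance was smaller on NaPB replicates 1 to 3, at 0.72, 0.87 and 1.03, and stayed at 0.88 on NaPB replicate 4, with −0.59 to 0.38 on the control arrays.

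Alad, whose enzyme joins 2 molecules of aminolevulinate into porphobilinogen, had 9.13, 9.83, 5.33 and 1.90 on NaPB replicates 1 to 4, against 10.4, 7.20, 6.20 and 6.51 on control replicates 1 to 4. NaPB replicate 4 stood alone at the bottom, 2.04 log2 units below the mean of the other NaPB arrays, and the diets overlapped. Its log2 fold change was −0.43 ± 0.48 (limma adjusted p = 0.845), and 0.078 ± 0.31 without NaPB replicate 4.

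Urod, the uroporphyrinogen decarboxylase gene, had 15.0, 17.9, 14.7 and 8.34 on NaPB replicates 1 to 4, against 17.2, 10.3, 15.7 and 10.6 on control replicates 1 to 4. The diets overlapped, with only NaPB replicate 4 outside the control range on the low side. Its log2 fold change of 0.035 ± 0.32 had a 95% interval of −0.68 to 0.75. That interval runs from 0.63-fold to 1.68-fold of the control level, so it leaves room for a difference in either direction.

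Cpox, the coproporphyrinogen oxidase gene, had the lowest fold change of the 9 genes. It had 7.01, 5.36, 2.29 and 3.92 on NaPB replicates 1 to 4, against 10.2, 5.76, 8.26 and 7.79 on control replicates 1 to 4. NaPB replicates 2, 3 and 4 lay below all controls and NaPB replicate 1 among them, so that NaPB replicate 3, not 4, was the lowest. The log2 fold change was −0.87 ± 0.37 (95% interval −1.69 to −0.06), which limma did not call (adjusted p = 0.443), nor without NaPB replicate 4 (−0.83 ± 0.40, limma adjusted p = 0.410).

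Ppox, which encodes the next oxidase of the pathway, stayed within a narrow range: 2.45, 2.63, 2.18 and 1.71 on NaPB replicates 1 to 4, against 2.03, 2.02, 2.58 and 2.04 on control replicates 1 to 4. The diets overlapped, and the log2 fold change was 0.041 ± 0.26 (95% interval −0.53 to 0.61). Fech, the ferrochelatase gene, had 12.1, 13.5, 12.0 and 5.24 on NaPB replicates 1 to 4, against 17.4, 9.95, 14.2 and 13.1 on control replicates 1 to 4. NaPB replicates 1 to 3 fell within the control range and NaPB replicate 4 below it. The log2 fold change of Fech was −0.41 ± 0.35 with all arrays and −0.10 ± 0.26 without NaPB replicate 4, and limma called neither (adjusted p = 0.782 and 0.913).

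Hmox1, the heme oxygenase 1 gene, was lower on all 4 NaPB arrays by its brighter feature, without reaching the threshold. It had 2.19, 1.62, 1.81 and 1.69 on NaPB replicates 1 to 4, against 3.43, 2.25, 2.35 and 2.44 on control replicates 1 to 4. The diets did not overlap, as for 4.31% of all genes in this direction. The log2 fold change was −0.51 ± 0.26 (95% interval −1.08 to 0.07, limma adjusted p = 0.587). For this feature NaPB replicate 4 lay among the other NaPB arrays. The second, dimmer feature pointed the other way: 1.68, 1.64, 1.64 and 1.71 on NaPB replicates 1 to 4, against 2.13, 1.38, 1.05 and 1.45 on control replicates 1 to 4, with overlap and a log2 fold change of 0.20 ± 0.28. The direction for Hmox1 therefore differed between its 2 features.

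Markers of Kupffer cells, the liver macrophages, which degrade heme from red cells and express Hmox1, moved with its brighter feature. The 12 measured markers summed to 25.4 to 29.8 on NaPB arrays and 35.6 to 40.5 on control arrays, without overlap. Of the 12, 11 had a log2 fold change below 0 and 5 were lower without overlap (4.31% of all genes), although limma called none (4 had an unadjusted p below 0.05). The smallest p belonged to C1qa, a complement gene of macrophages, with 0.889, 1.15, 0.947 and 0.899 on NaPB replicates 1 to 4, against 2.04, 1.89, 2.21 and 1.87 on control replicates 1 to 4 (log2 −1.05 ± 0.24, limma adjusted p = 0.0821). It was called lower after quantile normalization (limma adjusted p = 0.0241), and under the settings with log2(value + 1), genes below the median level left out, a variance trend or array weights (limma adjusted p 0.0109 to 0.0349). Clec4f, a defining Kupffer cell marker, had a log2 fold change of −0.50 ± 0.25, and Cd5l, the other, −0.30 ± 0.24. No marker was listed at 0, but Timd4 stood below 2 times the lowest intensity of the array on all 8 arrays, so its sign carries little. Cd163 (log2 −0.49 ± 0.51) stood below that level on NaPB replicate 2, at 0.0468. The part of the Kupffer cell markers in the Hmox1 values was not tested.

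**Figure D3:**
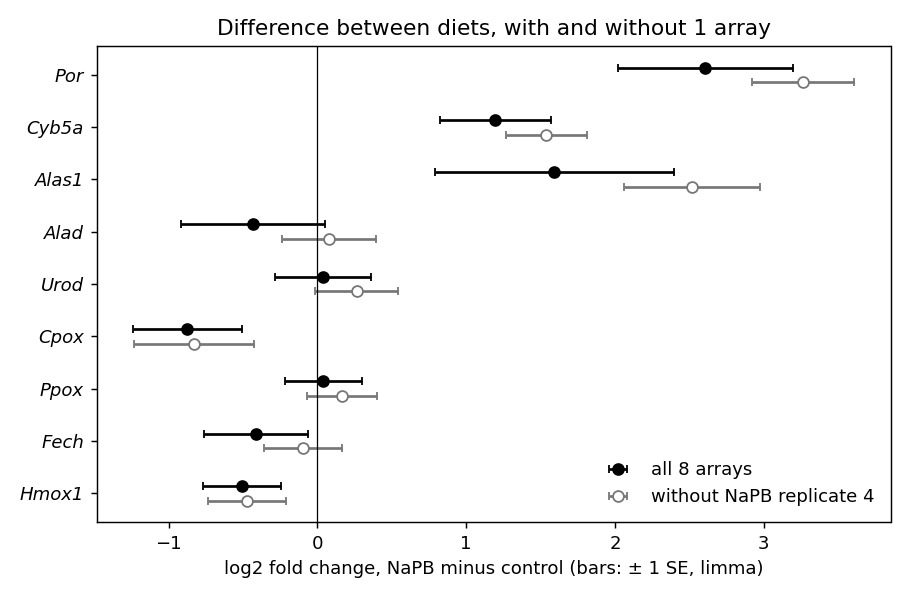
Log2 fold change of each gene by its brightest feature, NaPB minus control (horizontal axis; bars are ± 1 limma SE), with all 8 arrays (filled) and without NaPB replicate 4 (open). Leaving that array out moves Por to 3.26, Alas1 to 2.52 and Cyb5a to 1.54, and Alad from below 0 to 0.078.

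The P450 genes that these proteins serve were among the clearest differences between the diets. Of 15 measured drug-metabolizing P450 genes limma called 7 higher and none lower (0.391% and 0.618% of all genes), with a median log2 fold change of 1.52, against 0.013 over all genes. Cyp2b10, whose product is the hallmark phenobarbital-inducible P450 of mice, had 521, 491, 430 and 77.7 on NaPB replicates 1 to 4, against 3.72, 0.863, 2.98 and 5.22 on control replicates 1 to 4. It thus stood far above the controls on NaPB replicate 4 as well, with a shift of 4.87 log2 units there against 7.34 to 7.62 on the other NaPB arrays. Por had 0.64 and Alas1 −1.18 on that array. The list's mean shift was 1.30 log2 units on NaPB replicate 4 and 2.36 to 2.89 on NaPB replicates 1 to 3. The other genes called higher were Cyp2c55, Cyp2c54, Cyp2c50, Cyp2c37, Cyp2b9 and Cyp2b13, with log2 fold changes of 2.50 (Cyp2c37) to 6.65 (Cyp2c55). Cyp2c55 had 0.0710, 0.0462 and 0.0491 on control replicates 1 to 3, each below 2 times the lowest intensity of its array. So was Cyp2b13 on control replicate 1, at 0.0643. The sizes of the Cyp2c55 and Cyp2b13 differences are therefore uncertain.

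Other genes of heme synthesis gave 0 calls by limma among 8 measured (1 with an unadjusted p below 0.05; median log2 −0.084). The exception in size was Alas2, the erythroid counterpart of Alas1. It had 1.51, 1.80, 1.03 and 2.35 on NaPB replicates 1 to 4, against 1.65, 8.29, 16.0 and 10.6 on control replicates 1 to 4. Control replicate 1 lay with the NaPB arrays and the other 3 controls far above them. The log2 fold change was −2.11 ± 0.61 (limma adjusted p = 0.186), and −2.81 ± 0.35 without control replicate 1, where limma called it (adjusted p = 0.0137). In that setting 68 of 20703 genes were called lower. The Alas2 value of control replicate 1 was known when this setting was picked for mention, so the call is not independent evidence. Of 8 measured erythroid markers, a list that includes Alas2 itself, 4 had a log2 fold change above 0 and 4 below, and their sum overlapped between the diets (208 to 372 on NaPB, 202 to 374 on control). The globin genes Hba-a2 and Hbb-bt had log2 fold changes of −0.04 ± 0.31 and 0.12 ± 0.34, whereas Slc4a1, the red cell anion exchanger gene, was lower without overlap at −1.03 ± 0.33 (limma adjusted p = 0.247). The part of blood in the Alas2 values was not tested. Tmem14c and Clpx, a protoporphyrin transporter gene and the gene of a mitochondrial chaperone that acts on the synthase, had 0.43 ± 0.52 and −0.25 ± 0.30.

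Heme breakdown and transport genes had 8 of 9 log2 fold changes above 0 and a median of 0.47, and limma called none (1 with an unadjusted p below 0.05). The 8 include Flvcr1, at 0.02 ± 0.47. It stood below 2 times the lowest intensity of the array on NaPB replicate 2 and on control replicates 1 to 3, so its sign carries little. Hpx, which encodes the heme scavenger hemopexin, was higher without overlap: 420, 416, 429 and 740 on NaPB replicates 1 to 4, against 282, 317, 331 and 301 on control replicates 1 to 4 (log2 0.66 ± 0.28, limma adjusted p = 0.437). Hemopexin is an acute phase protein, and its highest value fell on NaPB replicate 4, the array with high Hp and Fgb. Hmox2, the constitutive heme oxygenase gene, had 0.48 ± 0.27 and the heme transporter gene Slc48a1 had 0.60 ± 0.35.

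Among 13 other electron carriers limma called none, and none had an unadjusted p below 0.05 (median log2 0.10). Pgrmc1, a heme-binding membrane protein gene whose product associates with P450 enzymes, had 49.7, 56.3, 51.0 and 20.6 on NaPB replicates 1 to 4, against 32.4, 19.4, 26.8 and 25.6 on control replicates 1 to 4. As with Cyb5a, NaPB replicates 1 to 3 exceeded all controls and NaPB replicate 4 fell among them (log2 0.69 ± 0.36, limma adjusted p = 0.592). Cyb5rl and Cyb5r2, of the cytochrome b5 reductase family, had 0.55 ± 0.36 and 0.61 ± 0.43. Cyb5r3, the main reductase of cytochrome b5, had 0.08 ± 0.35.

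Enzymes outside drug metabolism that take electrons from Por or cytochrome b5 gave 0 calls by limma among 10 (1 with an unadjusted p below 0.05; median log2 −0.12). Cmah, a sialic acid hydroxylase gene, was lower without overlap (log2 −1.04 ± 0.39). Sqle, of sterol synthesis, had 0.99 ± 0.50, and Scd1, the stearoyl-CoA desaturase gene, −1.04 ± 0.58. Of 9 other heme protein genes, 2 were lower without overlap (4.31% of all genes) and limma called none (2 with an unadjusted p below 0.05). The 2 lower genes were Suox, the sulfite oxidase gene (−0.93 ± 0.39), and Cygb, the cytoglobin gene (−0.71 ± 0.29). Ido2, of tryptophan breakdown, had −0.53 ± 0.46. Tdo2, whose enzyme needs heme to break down tryptophan, had 0.03 ± 0.26.

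Iron handling genes had 8 of 12 log2 fold changes above 0 and a median of 0.35, with no call by limma on all arrays (2 with an unadjusted p below 0.05). Fth1, the ferritin heavy chain gene, had 370, 324, 310 and 158 on NaPB replicates 1 to 4, against 190, 107, 183 and 146 on control replicates 1 to 4, again with NaPB replicate 4 among the controls (log2 0.86 ± 0.34, limma adjusted p = 0.399). Slc39a14, an iron and zinc importer gene, was higher without overlap (0.86 ± 0.36), with its highest value, 5.11, on NaPB replicate 4. Trf, the transferrin gene, had −0.80 ± 0.38. Without NaPB replicate 4 limma called 2 of the 12 higher, against 1.02% of all genes. Tfrc, the transferrin receptor gene, had log2 1.54 ± 0.31 (limma adjusted p = 0.0455). It was taken by the brightest of its 12 features, which was dim, at 0.534 to 2.88 over all arrays. Ftl1, the ferritin light chain gene, had 1.30 ± 0.27 (limma adjusted p = 0.04997). Both were named after their values were seen. None of 10 regulators of Alas1 or Hmox1 was called by limma, and none had an unadjusted p below 0.05 (median log2 −0.17). The smallest p belonged to Rxra, the partner receptor of CAR (−0.36 ± 0.25), Nfe2l2, the gene of the antioxidant regulator Nrf2 (0.69 ± 0.51), and Nr1i2, the PXR gene (0.44 ± 0.34).

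**Figure D4:**
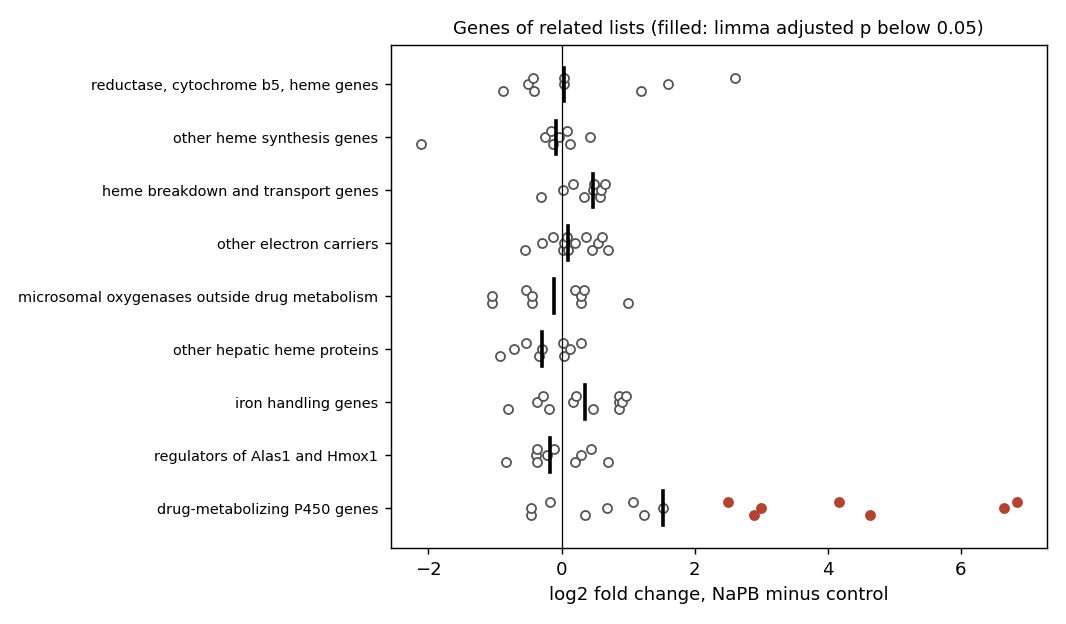
Log2 fold change, NaPB minus control (horizontal axis), of every measured gene in the 9 genes described here and 8 related lists; black bars are list medians and filled points passed limma at an adjusted p below 0.05. Filled points appear only in the P450 list, and Por at 2.61 is the rightmost open point.

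By likeness of pattern, taken as Pearson's r of log2 values over the 8 arrays among 9727 brighter named genes, the genes nearest to Por were Gadd45b (0.988), P2rx4 (0.987) and Srp19 (0.986). Gadd45b, a stress response gene, had 19.9, 26.8, 14.3 and 2.04 on NaPB replicates 1 to 4, against 2.10, 1.29, 1.47 and 1.38 on control replicates 1 to 4. Nearest to Alas1 were Krtap5-2 (0.987), Sntg1 (0.985) and Prelid3b (0.984). Sntg1 had 2.47, 4.21, 3.47 and 0.0495 on NaPB replicates 1 to 4, against 0.375, 0.181, 0.453 and 0.135 on control replicates 1 to 4, with its lowest value on NaPB replicate 4 below 2 times the lowest intensity of that array, too dim to carry a size. These r values describe 8 points in 2 diets, in which NaPB replicate 4 lies near the controls, and were taken as the highest among many genes.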

How the data were processed

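Total liver RNA was labelled with Cy3 and hybridised to 1-colour Agilent arrays; Agilent Feature Extraction 10.7 is named in the submitters' processing notes. The deposited values are intensities on a linear scale, whose 75th percentiles lie near 1 on every array as the authors deposited them; these sources do not give the scaling rule or what was done about background, flagged spots or a floor. Of 62976 features, 31465 carried 1 symbol and 31511 none; symbols were updated through RefSeq (GRCm38.p6) accessions, and 3358 changed. Log2 intensities without pseudocount were fitted with limma 3.58.1 (R 4.3.3), diet as the only term, each gene by its brightest feature, with Benjamini-Hochberg adjustment over 20703 genes. Precision is limited by having 4 arrays a diet. The members, lists and naming rule (all 9 genes; called genes and the 3 smallest p of each other list; Cyp2b10; the 3 genes most like Por and Alas1) were chosen with earlier results of these data known. Counts over a list cover its measured genes; its other genes are not analysed here. The fit was tested on simulated data. The labels state no pairing of arrays by replicate number, and the main fit used none. Correlations of same-numbered deviations were 0.23, −0.28, 0.04 and 0.23, which are too few to settle whether arrays were paired. Alternatives were 22 settings of scaling, filter, feature, pseudocount, variance model, weights, block, threshold and arrays left out. Figures were made with Python 3.11.15 and matplotlib 3.10.9.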

Additional observations from a re-analysis of the deposited data

Results flagged for a closer look

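In 22 groups (11 features on 4 arrays of each diet), 3 had an array far from the other 3 by Dixon's ratio on log2 values, above its 95% critical value, where chance flags about 1 in 20 groups. NaPB replicate 4 was the low array for Cyb5a, at 139 with a ratio of 0.940, and for Fech, at 5.24 with a ratio of 0.875. Control replicate 3 was the high array for Ppox, at 2.58 with a ratio of 0.953. For Alas1 and Por, NaPB replicate 4 lay farther from its diet in log2 units (3.70 and 2.63 below the mean of the others), but the spread among the other 3 arrays was wider and neither passed the critical value.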

How the results depend on the processing

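Each alternative changed 1 choice, apart from the variance trend with robust estimation, the pair of arrays left out together, and quantile normalization with NaPB replicate 4 left out, which was chosen after seeing the data; in those not named, the count of the 9 genes called higher stayed at 0, and in none was one called lower. Por was the only member called after quantile normalization, with genes below the median level left out, with a variance trend and robust estimation, or at an adjusted p below 0.1 (1 each), and Por, Cyb5a and Alas1 were called with array weights, without NaPB replicate 4, without it and control replicate 1 together, and with quantile normalization without it (3 each). Over 22 alternatives Por had a log2 fold change of 2.18 to 3.42 (limma adjusted p 0.00271 to 0.204), Cyb5a 1.02 to 1.63 (0.0119 to 0.505) and Alas1 1.07 to 2.70 (0.0316 to 0.864). With 1 array left out, 0 to 3 members were called higher, and of all genes 36 to 212 were called higher and 48 to 154 lower, with the highest counts without NaPB replicate 4; for Alas1 the lowest value was then 1.11 (NaPB replicate 2 left out) and the highest 2.52 (NaPB replicate 4 left out).

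Over all genes 81 were called higher and 128 lower. Genes higher numbered 47 with arrays shifted to the same median, 458 with array weights, 374 without control replicate 1 and NaPB replicate 4, 284 with quantile normalization without NaPB replicate 4 and 130 at 0.1. Genes lower numbered 225 with quantile normalization, and under the settings just named 66, 353, 196, 315 and 233. With the replicate block, 58 were called higher and 77 lower, Por had limma adjusted p = 0.0765, and no member's call changed. Alas1 had 1.59 ± 0.49 there (limma adjusted p = 0.259). By the labels, same-numbered arrays share only a number. Cyp2b9, Cyp2c55 and Cyp2b13 were not called with log2(value + 1), nor was Cyp2b13 without NaPB replicate 2 (limma adjusted p = 0.0515) or without control replicate 1 (0.0506), which left 6 P450 genes called each time. The causes were not tested.

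Signs near 0 turned. Alad was at 0.074 with array weights, −0.71 to 0.078 with 1 array left out (above 0 only without NaPB replicate 4) and 0.24 without that array and control replicate 1. That last setting turned Fech (0.029), Clpx (0.019), Cyb5r2 (−0.021) and Ido2 (0.088). Urod was at −0.050 with quantile normalization, −0.016 with that and without NaPB replicate 4, and −0.10 to 0.27 with 1 array left out, and Ppox at −0.043 to 0.16. Neither depth nor background flags were given, so signal over background could not be weighed for dim genes.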
